A study of Drosophila melanogaster with 14 samples.

Results

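The Stellate (Ste) genes and the Suppressor of Stellate (Su(Ste)) repeats of Drosophila melanogaster were followed through S phase in tumorous testes. Members were chosen by symbol and position in the dm6 annotation. The 12 Ste genes form 1 tandem cluster on the X chromosome, and the 27 Su(Ste) genes lie on the Y chromosome, which makes 39 of 18277 annotated genes. The Ste cluster had also been singled out in earlier work on these data by its ratio of early to late signal. For this reason, that ratio is described here for the Ste genes without a test.

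Ste genes encode proteins related to the regulatory beta subunit of casein kinase 2. In the male germline, Su(Ste) repeats on the Y give rise to piRNAs that silence Ste, with the Argonaute proteins aub and AGO3 acting in the process. When Su(Ste) is missing, Ste protein forms crystals in spermatocytes and male fertility falls. Both families are multicopy repeats, and the Y lies in heterochromatin, which usually replicates late.

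Repli-seq measures newly made DNA. Here 100 to 200 pairs of testes were pooled for each preparation and incubated with BrdU for 15 minutes, S-phase nuclei were sorted by DNA content into 4 fractions, and BrdU-labelled DNA was sequenced. The first and the last fraction are written E (early) and L (late), with EM (between early and middle) and ML (between middle and late) in mid-S. In the GSC-like samples (germline stem cell-like), GAL4::VP16-nanos.UTR drove UAS-Upd in y[1] w[1118] P{hs70FLP} flies. In the CySC-like samples (cyst stem cell-like), traffic Jam-GAL4 drove UAS-Upd in w[1118] flies. Both carried UAS-FRT-H3-GFP-FRT-H3-mKO, and no age was given. All samples were tumors that overexpress Upd, a JAK-STAT ligand, and none was a normal testis. The lines differ in X chromosome genotype as well as in driver and cell type, so these cannot be told apart, and the number of Ste or Su(Ste) copies in either line was not measured. Genomic DNA holds no expression markers by which the cell types could be checked.

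There were 14 libraries from 4 preparations, called G1 and G2 for GSC-like and C1 and C2 for CySC-like, after their replicate numbers. G1, G2 and C2 gave 4 libraries each, and C1 gave E and L. The authors' table lists RPKM in 3 kb windows that step by 1 kb, and the values correspond to library totals of 516446 to 144094360 reads. G2 was the only paired-end preparation and the shallowest, with 516446 to 7054639 reads. In 4 windows that tile 12 kb inside the Ste cluster, its ML library had 13 reads in all (95% Poisson interval 6.92 to 22.2, counting error only), whereas the other libraries had between 263 and 57604. Nothing in the labels says that replicates came from separate crosses, so their spread may be partly technical.

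The 12 Ste genes run from 14046772 to 14061817 on X (dm6), all on the minus strand, with a median of 1269 bp between the starts of neighbours. Each has a longest coding exon of 497 to 501 bp. Pairs of Ste genes were 98.1% to 99.9% identical over their length, with a median of 99.4%. Of the Su(Ste) genes, all annotated as noncoding RNA, 24 lie between 869892 and 1040412 on Y and 3 between 2559809 and 2595311. Their median pairwise identity was 90.6%, with a range of 48.4% to 100%. Identity was counted over the whole of the shorter gene, so pairs that cover different stretches also score low. The best local alignments between a Ste and a Su(Ste) gene had a median identity of 85.7% over a median of 719 bp. Of the Su(Ste) genes, 24 aligned to all 12 Ste genes, the longest alignment of each being 71 to 812 bp. The other 3, Su(Ste):CR42421, Su(Ste):CR42427 and Su(Ste):CR42415, aligned to 1 Ste gene each over 44 bp. In each of the 291 aligned pairs the annotated strands matched.

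The start of the longest coding exon gives an example of differences between the families. It is given 5′ to 3′ from the dm6 reference on the coding strand. Capitals mark bases that differ from the Ste sequence, and positions count from 1 at its 5′ end. The first line is shared by 10 Ste genes (in Ste:CG33247 at chrX:14047368-14047397, coding exon). In the other 2, Ste:CG33242 and Ste:CG33238, the annotated exon begins a few bases further along the same sequence. The second is shared by 13 Su(Ste) genes (in Su(Ste):CR42422 at chrY:871024-871053), with the substitutions C2A, G4C and G26A. The third, in Su(Ste):CR45796 at chrY:1040207-1040236, adds C10G and A12G. Not every Su(Ste) gene holds a close match. The best match needed 11 edits in Su(Ste):CR41533, Su(Ste):CR42432, Su(Ste):CR45795, Su(Ste):CR42415 and Su(Ste):CR42416. It needed 12 in Su(Ste):CR42421 and Su(Ste):CR42427.
Ste: ccagaacaacaacagcagctggatcgattg
Su(Ste), common form: cAaCaacaacaacagcagctggatcAattg
Su(Ste):CR45796: cAaCaacaaGaGcagcagctggatcAattg

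Other stretches are shared by both families without a difference. The 30 bases below, from an intron of Ste:CG33247 (chrX:14046861-14046890, minus strand), occur in all 12 Ste genes and in 22 of 27 Su(Ste) genes. A read of this length and sequence could come from either chromosome.
Shared stretch: aattctccgaatatagtcctggttgttttc

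Repetition limits what a single gene's value can show. Of the 50-base words of a Ste gene, a median of 5.04% (0% to 32.0%) occur once in the reference genome, against a median of 100% for 10 kb bins of the X arm. For Su(Ste) genes the median was 21.2% (0% to 45.4%), and for 10 kb bins of Y 11.1%. Words shared between the families were few, with a median of 4.00% of a Ste gene and 0.647% of a Su(Ste) gene. How reads with several matching positions were placed is not given in the sources used here. Members of a family therefore share reads and are not independent measurements. Neighbouring genes also share windows, as the 12 Ste genes draw on 18 windows of 3 kb in all. Counts of Ste genes that go the same way thus describe the cluster and not 12 separate genes. The words of a Su(Ste) gene had a median of 2 to 51 copies in the genome, depending on the gene, so reads may also have been placed outside the 27 genes, which would change the family mean.

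The Ste signal was higher in CySC-like than in GSC-like libraries in EM, ML and L, but not throughout E. The Su(Ste) signal was lower in CySC-like libraries in every fraction. This is signal of BrdU-labelled DNA from sorted fractions, and does not give the number of copies. Levels are RPKM after each library was scaled to a common mean over the genome, averaged over the genes of a family. In G1, the mean Ste level was 4.46, 2.97, 3.31 and 1.82 from E through L. In G2 it was 12.4, 14.8, 2.46 and 7.53 in the same order. G2 was above G1 in E, EM and L, and below it in ML, where G2 had 13 reads in the tiled windows.

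In C1, the mean Ste level was 11.7 in E and 31.1 in L. In C2 it was 12.9, 30.9, 19.4 and 48.8 from E through L. C1 and C2 were close in E, and L was the highest library of each. In E, G2 lay between the CySC-like replicates, and in EM, ML and L every GSC-like library was below every CySC-like one.

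The Su(Ste) mean in G1 was 9.26, 13.3, 10.4 and 9.31 from E through L. In G2 it was 13.9, 28.5, 14.0 and 19.6. In C1 it was 2.96 in E and 5.95 in L, and in C2 it was 6.10, 8.67, 2.66 and 5.91 from E to L. All 8 GSC-like libraries, from 9.26 to 28.5, were above all 6 CySC-like libraries, from 2.66 to 8.67.

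**Figure D1:**
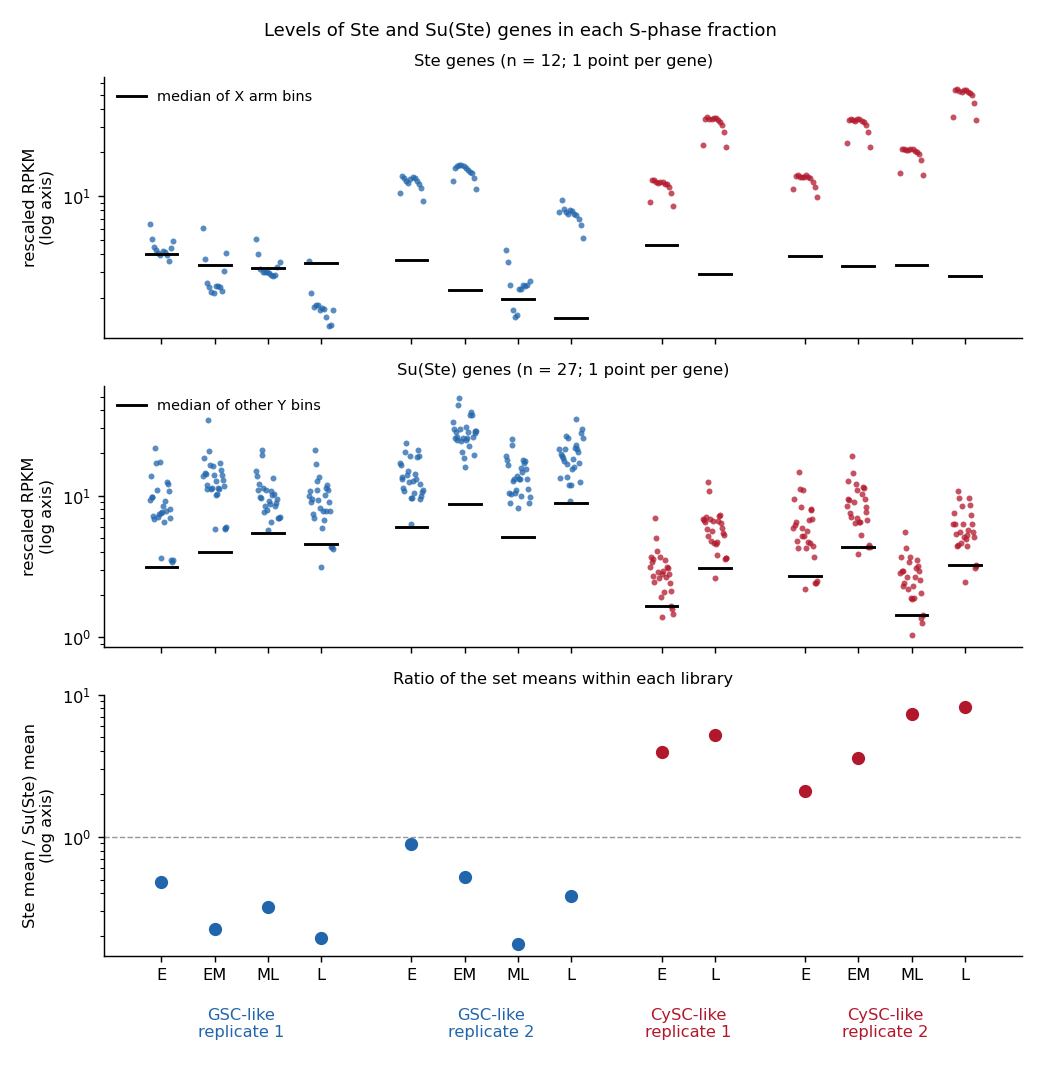
Rescaled RPKM (log axis) of each Ste gene (top) and each Su(Ste) gene (middle) in the 14 libraries, with the median of X arm bins or of the other Y bins as black bars, and the ratio of the family means (bottom, log axis). GSC-like libraries (blue) have a ratio of 0.176 to 0.890 and CySC-like libraries (red) one of 2.11 to 8.25.

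The ratio of the Ste mean to the Su(Ste) mean within a library does not depend on how libraries are scaled. It was 0.481, 0.224, 0.319 and 0.195 from E to L in G1, and 0.890, 0.521, 0.176 and 0.384 in G2. It was 3.94 in E and 5.23 in L of C1, and 2.11, 3.57, 7.29 and 8.25 from E to L in C2. The ranges of the cell types did not overlap in any fraction.

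The families were also set against their own chromosomes. The Ste mean was 0.519 to 1.12 times the median of 2200 X arm bins in G1 and 1.25 to 6.50 times in G2. In the CySC-like libraries it was 2.53 to 17.1 times that median. The CySC-like range lay above that of G1 and overlapped that of G2.

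Su(Ste) kept a narrow ratio to the rest of Y. Its mean was 1.91 to 3.31 times the median of 349 Y bins without Su(Ste) in the GSC-like libraries and 1.79 to 2.27 times in the CySC-like ones. Those Y bins themselves moved with the cell type, from 0.786 to 6.11 times the X arm median over the GSC-like libraries and from 0.359 to 1.32 times in CySC-like ones. G2 ran from 1.64 to 6.11 and G1 from 0.786 to 1.69. The part of this Y signal in the Su(Ste) difference was not tested. Over all fractions, the ratio to the rest of Y overlapped between the cell types, whereas the Su(Ste) level did not. Fraction by fraction, the ratios of G1 and G2 were above those of the CySC-like libraries. In E they were 2.95 and 2.31, against 1.79 in C1 and 2.27 in C2. In L they were 2.04 and 2.21, against 1.93 and 1.83. In EM they were 3.31 and 3.26 against 1.99 in C2, and in ML 1.91 and 2.72 against 1.85.

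In CySC-like libraries, the Ste signal stood above that of the cluster's flanks. In windows 5 to 40 kb to either side, the mean level was 3.02 to 5.50 in GSC-like libraries and 3.50 to 4.35 in CySC-like ones. The Ste mean was 3.12 to 13.6 times these flanks in CySC-like libraries and 0.448 to 2.99 times in GSC-like ones. A separate peak centred 21.8 or 20.8 kb before the middle of the cluster reached 20.5 times the X arm median in EM and 29.1 times in L of G2, and 1.36 to 6.60 times in the other libraries. It lies within these flanks and so enters their mean.

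**Figure D2:**
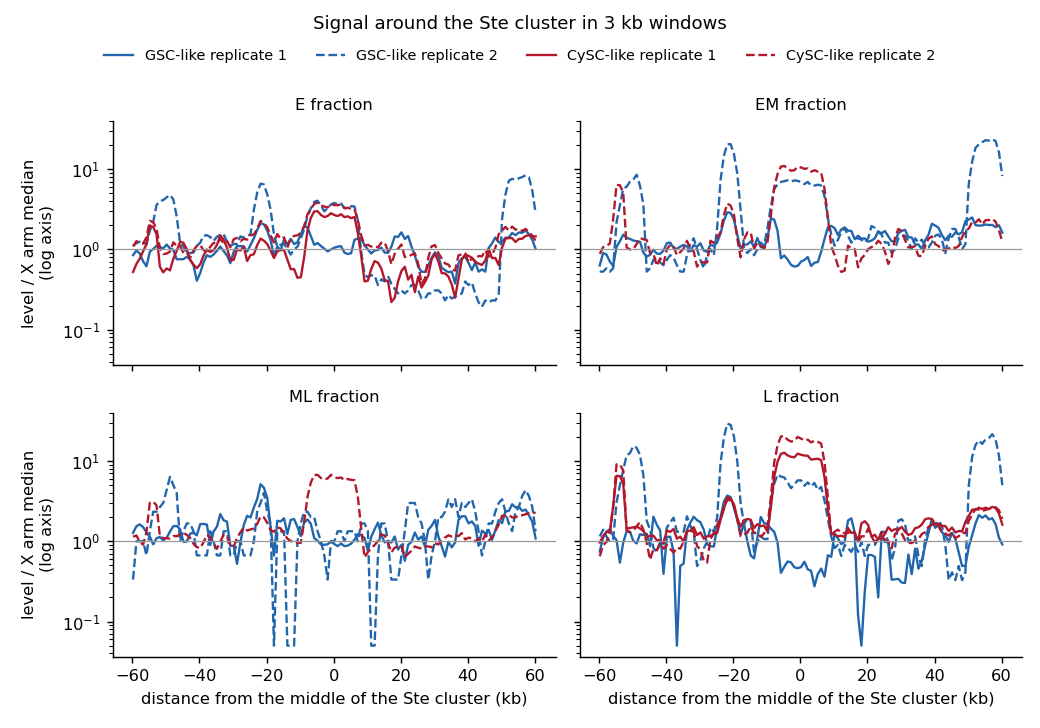
Level of each 3 kb window divided by the library's X arm median (log axis, values under 0.05 drawn at 0.05) against the distance from the middle of the Ste cluster, for each fraction and preparation. The plateau over the cluster stands at 11.7 (C1) and 18.3 (C2) times the X arm median in L, and at 0.475 (G1) and 5.37 (G2) times.

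Within the cluster, the 12 genes had like profiles, which is in part built into the measure, as neighbours share windows. Ste:CG33246 had the highest mean over the 14 libraries, 16.1, Ste:CG33243 the median one, 15.3, and Ste:CG33236 the lowest, 10.8. The genes at the ends, Ste:CG33247 and Ste:CG33236, were the lowest of the 12 in each CySC-like library. In L of C2 they measured 34.9 and 33.5 against 43.6 to 54.6 for the other 10. Their 3 kb windows reach beyond the cluster. In G1 the order was turned, and Ste:CG33247 was the highest of the 12 in every fraction (6.40, 6.10, 5.08 and 3.61 from E to L).

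The largest shares of single-copy words were in Ste:CG33236 (32.0%), the gene of lowest mean level, and Ste:CG33238 (18.9%), with a mean level of 14.4. In Ste:CG33238 the level was 3.57, 2.24, 2.87 and 1.28 from E to L in G1 and 12.6, 31.1, 19.6 and 49.6 in C2. The 4 Ste genes with no single-copy word had a mean difference in early to late ratio of 2.74 between the cell types on the log2 scale, and these 2 genes one of 2.76. Each value averages 3 kb windows that span neighbouring genes, so a gene's own share does not describe the reads behind its value. The likeness of these values therefore cannot show whether shared reads matter, and the ratio is the one that chose the cluster.

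Su(Ste) genes spread more widely. Su(Ste):CR42430 had the highest mean over libraries, 19.7, and also the largest share of single-copy words, 45.4%. Su(Ste):CR40820 had the median level, 10.2, and Su(Ste):CR42438 the lowest, 5.29, with no single-copy word. The 15 genes with at least 20% single-copy words averaged 12.2 and the 7 with none averaged 8.17, with ranges of 8.16 to 19.7 and 5.29 to 10.2 that overlap.

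The first Su(Ste) gene on Y, Su(Ste):CR42422, had a mean level of 12.3, and the last, Su(Ste):CR42424, one of 8.04. Su(Ste):CR42424, Su(Ste):CR42429 and Su(Ste):CR42431 make up the group near 2.6 Mb. In G1 this group averaged 3.48, 5.90, 7.02 and 4.29 from E to L, against 9.98, 14.2, 10.8 and 9.94 for the 24 genes near 1 Mb. In G2 it averaged 10.6, 28.5, 9.95 and 27.6, against 14.3, 28.5, 14.5 and 18.6. The mean of the 3 genes was below that of the others in all 4 fractions of G1, but about equal in EM and higher in L of G2.

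In the early to late ratio, Ste lay on opposite sides of 0 in the cell types. The mean log2(E/L) of the 12 genes was 1.28 in G1, 0.71 in G2, -1.40 in C1 and -1.90 in C2. That is 1.00 ± 0.40 against -1.65 ± 0.35 (SD, n = 2 each), a difference of 2.65. All 12 genes had both GSC-like values above 0 and both CySC-like values below 0, which 3.86% of all genes had. This ratio was used to choose the cluster, so nothing is read from that count. Of all 18277 genes, 0% passed limma's adjusted p threshold of 0.05 in this comparison, with 1181 at an unadjusted p under 0.05.

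The flanks of the cluster did not share this contrast. Their mean log2(E/L) was 0.17 in G1, 0.27 in G2, -0.37 in C1 and 0.22 in C2, and the X arm means were 0.16, 0.83, 0.44 and 0.31 in the same order. Ste minus its flanks was 1.11 in G1, 0.44 in G2, -1.03 in C1 and -2.12 in C2. Against the X arm, G2 gave -0.12 and G1 gave 1.12, so Ste had the higher ratio in G1 alone. It had the lower one in C1 (-1.84) and C2 (-2.21).

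Across genes the difference in log2(E/L) ran from 2.08 in Ste:CG33247 to 2.90 in Ste:CG33237, with a median of 2.70 against 0.41 over all genes. In Ste:CG33236, log2(E/L) was 1.53 in G1, 0.84 in G2, -1.33 in C1 and -1.76 in C2. Among the 4 fractions, all 12 genes were highest in E and lowest in L in G1, and highest in L and lowest in E in C2. In G2 all 12 were highest in EM and lowest in ML, the library with 13 reads. The X arm median was highest in E in G1, G2 and C2, with 28.4%, 39.2% and 28.9% of the 4 fractions. E and L chose the cluster, its genes share windows, and the matching shares of all genes were not counted. Nothing is therefore read from these counts.

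**Figure D3:**
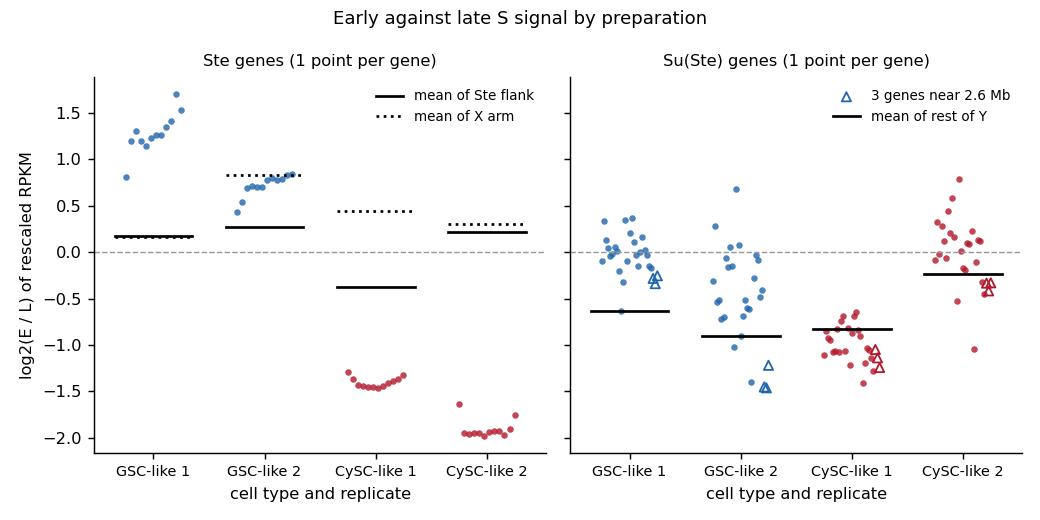
Log2(E/L) of each Ste gene (left) and each Su(Ste) gene (right) in the 4 preparations, with the means of the Ste flanks, the X arm and the rest of Y as lines. Ste genes are above 0 in both GSC-like and below 0 in both CySC-like preparations, and Su(Ste) genes overlap between the cell types.

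Su(Ste) showed no such split. Its mean log2(E/L) was -0.04 in G1, -0.49 in G2, -0.996 in C1 and -0.02 in C2, or -0.26 ± 0.32 against -0.51 ± 0.69 (SD, n = 2 each). The difference of 0.24 was smaller than the spread between replicates, and its sign turned with the scaling, to -0.14 with median bin scaling and -0.07 with autosomal arm scaling. In 1 of 27 genes both GSC-like values were above both CySC-like values, and 28.7% of all genes had this. That gene was Su(Ste):CR45796. The reverse held in 0 of 27 and in 8.83% of all genes.

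In 23 of 27 Su(Ste) genes the GSC-like mean log2(E/L) was the higher one, with a median difference of 0.21, against 73.9% of all genes and a median of 0.41. The 4 others were Su(Ste):CR42428 (-0.13), Su(Ste):CR42410 (-0.04), Su(Ste):CR42429 (-0.18) and Su(Ste):CR42431 (-0.12). Of these, the last pair belongs to the group near 2.6 Mb. That group had a lower mean log2(E/L) than the genes near 1 Mb in all 4 preparations, with a difference of -0.29 in G1, -0.998 in G2, -0.17 in C1 and -0.38 in C2. The groups were separated after these values had been seen, and the difference was not tested.

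Su(Ste) had a higher early to late ratio than the rest of Y in 3 of 4 preparations. The mean log2(E/L) of the other Y bins was -0.64 in G1, -0.90 in G2, -0.83 in C1 and -0.23 in C2. Su(Ste) minus these was 0.60 in G1, 0.41 in G2, -0.16 in C1 and 0.22 in C2. The mean was 0.27 ± 0.33 (SD, n = 4), with both cell types pooled. A two-sided exact sign-flip permutation test gave p = 0.25, the smallest possible p being 0.125. With n = 4 no outcome of this test could have passed the threshold, so nothing is read from its p.

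The mean Su(Ste) signal was highest in EM in G1, G2 and C2, the preparations with all 4 fractions. The share of the 4 fractions that fell in EM was 31.4% in G1, 37.5% in G2 and 37.2% in C2. EM was the highest fraction in 22, 24 and 27 of 27 genes in these preparations. The genes share reads, and the share of all genes highest in EM was not counted, so nothing is read from these counts. In G1 the group near 2.6 Mb was highest in ML, with 33.9% against 28.5% in EM. For the rest of Y the EM share was 23.4%, 30.4% and 37.2%, so in C2 the other Y bins had the same share. The EM and ML libraries of C2 are single libraries, and no replicate bears on their order.

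The EM and ML libraries were not part of the ratio that chose the cluster, and their mean log2 level could be tested. The mean over Ste genes was 1.65 in G1, 2.595 in G2 and 4.61 in C2. Both GSC-like values were below the CySC-like one in 12 of 12 Ste genes, as in 63.5% of all genes. The median difference was -2.64, or -2.23 relative to the median of all genes, which was -0.41. Across Ste genes it ran from -2.86 in Ste:CG33242 to -1.50 in Ste:CG33247.

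By limma with Benjamini-Hochberg adjustment over all 18277 genes, 10 of 12 Ste genes passed the threshold, with lower values in G1 and G2 than in C2. These 10 were all the genes called lower, 0.0547% of those tested, and 0 genes were called higher (110 genes had an unadjusted p under 0.05). Ste:CG33243 differed by -2.83 ± 0.50 (SE, limma adjusted p = 8.95e-05) and Ste:CG33246 by -2.28 ± 0.47 (adjusted p = 0.00205). The end genes Ste:CG33247 (-1.50 ± 0.47, adjusted p = 0.843) and Ste:CG33236 (-1.91 ± 0.50, adjusted p = 0.129) did not pass. As the genes share reads and windows, the calls amount to 1 difference measured on 1 cluster. The CySC-like side was 1 preparation, assumed to vary like the GSC-like ones, which left 1 residual degree of freedom, so the printed errors rest in part on spread borrowed from other genes. The Ste means of G1 and G2 alone were 0.95 apart, and their own spread gives an SE of 0.82 for the mean difference. The p-values therefore describe G1 and G2 against C2 and cannot establish a difference between the cell types.

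The call depended on the libraries and the scaling. Of the ML libraries, that of G2 is the one with 13 reads in the tiled windows. In EM, the mean Ste level was 2.97 in G1 and 14.8 in G2. With EM alone 0 Ste genes passed (smallest adjusted p 1.00, 325 genes at an unadjusted p under 0.05), and with ML alone 10 did. With libraries scaled on the X arm median, 0 passed (smallest adjusted p 0.305, 2403 genes at an unadjusted p under 0.05), and with scaling on the autosomal arms 12 passed. The mean Ste difference stayed negative, from -2.96 to -1.60, in all 17 alternatives.

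**Figure D4:**
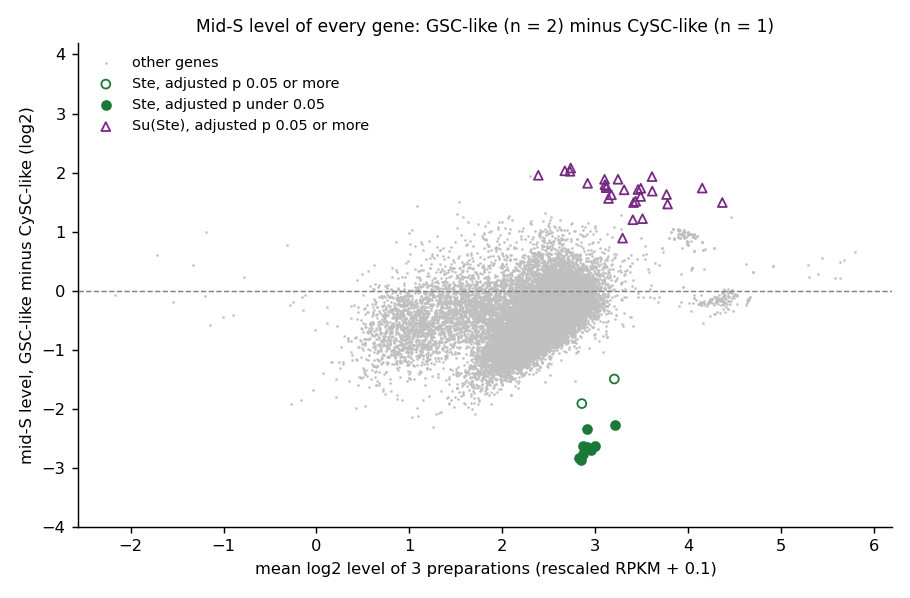
Difference in mid-S level (mean of log2 EM and ML, GSC-like minus CySC-like) of every gene against its mean log2 level in 3 preparations. Filled green points are the 10 Ste genes with a limma adjusted p under 0.05, open green points the other 2, and purple triangles the 27 Su(Ste) genes, of which 0 passed.

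Su(Ste) genes stood at the other end. Their mean mid-S log2 level was 3.48 in G1, 4.27 in G2 and 2.20 in C2. Both GSC-like values were above the CySC-like one in 27 of 27 genes, as in 10.2% of all genes. The median difference was 1.71, from 0.89 in Su(Ste):CR40820 to 2.08 in Su(Ste):CR42429. Of the 27 genes with the highest difference among all genes, 24 were Su(Ste) genes, and of the 12 with the lowest, 10 were Ste genes. The rest of Y moved too. The median level of its bins in EM and ML was 4.01 and 5.43 in G1, 8.74 and 5.14 in G2, and 4.36 and 1.44 in C2. It was higher in G1 and G2 than in C2 except in EM of G1. How much of the Su(Ste) difference is shared with the rest of Y was not tested.

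None of the Su(Ste) differences passed limma's test (0 of 27, smallest adjusted p = 0.0874, 26 at an unadjusted p under 0.05). Scaling on the median bin made 12 of them pass and scaling on the autosomal arms 21, so the call rests on the scaling. The mean difference was 1.18 to 2.17 in all 17 alternatives. Su(Ste):CR42430 differed by 1.49 ± 0.74 (SE, limma adjusted p = 0.983), and Su(Ste):CR42417, next to it in single-copy share (45.3%), by 1.71 ± 0.47 (adjusted p = 0.217).

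Timing within mid-S could be tested in GSC-like samples alone. The mean log2(EM/ML) of Ste was -0.20 in G1 and 2.595 in G2. The replicates lay on opposite sides of 0, and 0 of 12 genes passed limma's test (smallest adjusted p = 0.138, 10 at an unadjusted p under 0.05), against 0.148% of all genes called higher in EM and 0.427% called higher in ML. Only 2 Ste genes, the end genes Ste:CG33247 and Ste:CG33236, had log2(EM/ML) above 0 in both, as did 37.0% of all genes, and 0 had it below 0 in both, as did 16.2%. The G2 value rests on the ML library with 13 reads.

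For Su(Ste), log2(EM/ML) was 0.31 in G1, 1.04 in G2 and 1.66 in C2. It was above 0 in both GSC-like replicates in 23 of 27 genes, as in 37.0% of all genes, and 0 passed limma's test (smallest adjusted p = 0.938, 0 at an unadjusted p under 0.05). The 4 genes below 0 in G1 were Su(Ste):CR42422 and the 3 genes near 2.6 Mb.

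Ste12DOR, a Ste-related gene at chrX:14000210-14000889 and no member of the cluster, had log2(E/L) of the same signs as Ste. The words it shares with Ste were not counted, and how reads that match both were placed is not given. It may therefore not be a measurement independent of Ste. The level of Ste12DOR was 4.06, 4.32, 3.36 and 2.97 from E to L in G1, highest in EM where Ste was highest in E. It was 9.15, 8.69, 3.95 and 7.62 in G2, and 8.06, 19.5, 9.96 and 24.5 in C2. It was below the Ste mean in all 6 CySC-like libraries and above it in 5 of 8 GSC-like ones. Its log2(E/L) was 0.44 in G1, 0.26 in G2, -1.07 in C1 and -1.59 in C2. The difference of 1.68 did not pass limma's test (adjusted p = 0.692), nor did its mid-S difference of -1.54 (adjusted p = 0.983).

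A list of 30 genes of casein kinase 2, Ste relatives and the piRNA pathway was measured in full, and 0 of 30 passed limma's test for the early to late difference, mid-S level or EM/ML ratio. The median early to late difference was 0.48, against 0.41 over all genes. Both GSC-like values were above both CySC-like values in 9 of the 30 and below in 1, against 28.7% and 8.83% of all genes, so these counts are near the background. CkIIbeta, the casein kinase 2 beta subunit, had log2(E/L) of -0.78 in G1, 1.25 in G2, 1.02 in C1 and 0.55 in C2.

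Of the Argonaute genes that act on Ste, aub had log2(E/L) of 0.23 in G1, 2.62 in G2, 1.31 in C1 and 0.46 in C2, which overlap. AGO3, which lies in heterochromatin of 3L, had 0.42 in G1, 0.35 in G2, -1.40 in C1 and -0.68 in C2. For AGO3 the cell types did not overlap, as for Ste, but the difference of 1.42 did not pass limma's test (adjusted p = 0.754).

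Among genes over 50 kb from any member, the mean Ste log2 profile over the 14 libraries was most like those of Cbp20 on 3R (r = 0.71), snoRNA:Psi28S-2444 (r = 0.71), deltaTry (r = 0.70), RpL11 (r = 0.69) and AIMP1 (r = 0.69), the last 4 on 2R. snoRNA:Psi28S-2444 lies within the span of RpL11, so they share windows. These Pearson correlations describe 14 libraries that share 4 preparations and have no p. The profiles varied less than that of Ste, with an SD of 0.77 to 1.01 on the log2 scale over libraries against 1.49.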

How the data were processed

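DNA from 14 sorted S-phase fractions was sequenced. Reads were aligned with Bowtie2 2.4.5 to dm6, per the submitters' processing notes. The authors deposited RPKM per 3 kb window in 1 table. Duplicate removal and the placing of multi-mapped reads are not given in the sources used here. All values were whole multiples of 1 read's worth (100%, tolerance 0.001 reads), which gave the library totals. Reference chromosome lengths equal the table's ends.

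Libraries were rescaled to an equal mean over 10 kb bins, a gene's value was the mean of windows that overlap it, and log2 used a pseudocount of 0.1 RPKM. Fold changes are on that scale and understate changes of low genes. A filter on genes at 0 in more than 50% of libraries removed no gene. Tests were limma 3.58.1 (R 4.3.3) with a variance trend over all 18277 genes, Benjamini-Hochberg threshold 0.05, and an exact sign-flip permutation test. Single-copy words are 50-mers found once in the reference. Alignments used BLAST 2.17.0. The fits were tested on simulated data, where the EM/ML fit made more false calls than its threshold allows. Members and gene lists were chosen with earlier results of these data known. Named members are the first and last, the lowest, median and highest in level, those opposing their family, and those with the most single-copy words; the gene of smallest or largest difference, other listed exceptions and Ste:CG33242 were named after their values were seen.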

Additional observations from a re-analysis of the deposited data

Results flagged for a closer look

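The mean log2(E/L) of Ste genes lay above 0 in both GSC-like and below 0 in both CySC-like preparations, a difference of 2.65. The difference was not tested, because the cluster had been chosen by this ratio.

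Of the Su(Ste) genes, 7 more are annotated on sequences not placed on a chromosome and entered no comparison. Their mean rescaled RPKM over all libraries was 15.5. By preparation it was 16.8 in G1, 24.5 in G2, 7.10 in C1 and 9.51 in C2. As for Su(Ste) on Y, both GSC-like values were above both CySC-like values. The value of C1 averages E and L alone, and those of the other preparations average 4 fractions. Su(Ste):CR42408 and Su(Ste):CR42409 had the same values in every library, so the 7 genes are not 7 separate measurements. The share of all genes with this order was not counted.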

How the results depend on the processing

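In the early to late comparison, 0 of 18277 genes passed, and 0 with the replicate block (706 at an unadjusted p under 0.05). The count was 188 with voom on the recovered reads, 19 with median bin scaling, 23 with autosomal arm scaling, 21 with quantile normalization, 1 with a pseudocount of 0.01 and 14 with 10 kb bins. Leaving out 1 preparation gave 0 to 563 genes, 563 without G1 and 85 without G2. Replicate 1 of the cell types deviated in opposite directions (r = -0.31 over genes), and a crossed replicate block, added after this was seen, gave 50. The mean Ste difference of 2.65 was 2.27 with median bin scaling and 1.98 with 10 kb bins, and 2.37 to 2.94 with 1 preparation left out. The mean Su(Ste) difference ran from -0.25 to 0.73 with 1 preparation left out, and Su(Ste) minus the rest of Y from 0.15 to 0.41.

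Mid-S level gave 10 genes, 33 with median bin scaling (12 of them Su(Ste)), 75 with autosomal arm scaling (21 Su(Ste)), 381 with quantile normalization (20 Su(Ste)) and 0 with 10 kb bins, where 0 of 3 Ste bins passed (smallest adjusted p 0.0929, 147 bins at an unadjusted p under 0.05). Chosen after seeing the data were scaling on the X arm median, which gave 0 genes at mid-S level, of them 0 Ste, and 15 for the early to late comparison, EM alone, which gave 0 genes, of them 0 Ste, and ML alone, which gave 86 (17 Su(Ste)). Without G1 or G2 no test was possible for want of residual degrees of freedom, nor without C2. In G1 and G2, EM/ML gave 105 genes, 8 without the variance trend, 0 with median bin scaling, 54 with autosomal arm scaling, 162 without rescaling, 212 with X arm scaling, 58 with a pseudocount of 1, 22 with the window nearest the gene and 531 with quantile normalization. The cause of these changes was not tested. Scaling moved the median early to late difference of all genes from 0.41 to between -0.02 and 0.50. Depth limits G2, whose ML library had 13 reads in the tiled windows.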
